A study of Arabidopsis thaliana with 24 samples.

Results

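The mTERF family (mitochondrial transcription termination factors) is represented here by 4 Arabidopsis thaliana genes, AT5G55580 (mTERF9), AT1G79220, AT1G61990 and AT1G62010. Each has a probe annotated with that gene alone, and they are 4 of the 691 genes so measured, by 692 of the 3439 probes on the array. The 4 genes were selected on their log2 changes between mutant and wild type, in the sense that they were proposed with that contrast already known. Their changes in it are therefore a description, without a test.

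mTERF proteins are encoded in the nucleus and act in plastids and mitochondria, where their helical repeats bind nucleic acids. The first member of the family was found in human mitochondria as a factor that ends transcription, and plant members take part in transcription, intron splicing and ribosome formation in the organelles. Plants have many more members than animals. mTERF9 is a plastid protein that is needed for normal chloroplast gene expression.

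Total RNA of the sut2 mutant of Arabidopsis, ecotype Wassilevskija, was compared with that of wild type of the same ecotype, in 12 columns a group with replicate numbers 1 to 12. According to the labels the mutant has no SUT2, which transports or senses sucrose at the plasma membrane; no probe here was named for it alone, so the loss was not measured. The sources used here do not give the allele, the tissue, the age of the plants or how they were grown. Nor do they say that columns stand for separate plants, so p-values cover the spread between columns only, which may be technical, and precision is limited by the number of arrays.

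Values were linear intensities with column means from 0.959 to 1.05. Columns were quantile-normalized on the log2 scale, which gives every column the same distribution. Over all 3439 probes quantile normalization left a median log2 change (mutant minus wild type) of 0.10, median centring of the columns gave 0.31, and without either the median was -0.24, so each change below is read against these shifts. Columns with consecutive numbers in a group resembled each other and may be repeats, so averages of them (6 sets a group) are given beside the 24 columns. Numbers 1 to 6 and 7 to 12 were also treated as separate divisions. The labels do not give such a division, and how far it separates the columns over all probes is not shown here. None of the 6 measured green tissue markers passed the test (limma, adjusted p under 0.05), in the 24 columns or in the averaged sets. Their summed intensity ran from 53.1 to 73.2 in wild type and from 56.9 to 78.6 in the mutant. None of the 14 listed root, flower and seed markers had a probe of its own, so tissue composition was not compared.

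The 4 members did not move together. mTERF9 was higher in the mutant under every scaling tried, and AT1G62010 was lower under every scaling. AT1G79220 and AT1G61990 were higher only after a further normalization of the columns, whose deposited means already ran from 0.959 to 1.05. After quantile normalization 2 members, AT5G55580 and AT1G79220, passed an adjusted p of 0.05 (limma), both higher in the mutant, where 34.8% of all probes passed (18.8% higher and 15.9% lower). With consecutive numbers averaged AT5G55580 alone of the 4 passed, against 13.1% of all probes. The median change of the 4 was 0.46, against 0.10 over all probes. These counts come from the contrast that the choice of members used, and nothing is read from them.

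After quantile normalization mTERF9 had the largest change of the 4, while without normalization that of AT1G62010 was larger. Its deposited intensity was 0.836 at the lowest, 1.19 at the median and 1.61 at the highest in the wild type columns. In the mutant columns the lowest, median and highest intensities were 1.54, 1.83 and 2.26. The groups overlapped at a single mutant column, and the other 11 mutant columns lay above every wild type column. After quantile normalization the mean log2 level was 0.08 ± 0.51 in the wild type columns and 0.92 ± 0.12 in those of the mutant (SD, n = 12 columns). The log2 change was 0.85 ± 0.16 (SE), or 1.80-fold, and the SE was 0.23 over the averaged sets. The mutant was higher in 12 of 12 numbers, by 0.30 to 1.55 on the log2 scale, as were 7.07% of all probes. The change was 0.68 without normalization and 1.22 with median centring.

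The wild type columns of mTERF9 were split along the division of the numbers. The median wild type intensity was 1.51 over numbers 1 to 6, against 0.938 over numbers 7 to 12, while the mutant medians were 1.92 and 1.78. The log2 change was accordingly 0.50 in numbers 1 to 6 and 1.20 in numbers 7 to 12, with all 6 numbers higher in each. The difference between the divisions, 0.70 ± 0.19 (SE), did not pass over all probes (limma interaction term, adjusted p = 0.0747, and 0.639 with consecutive numbers averaged). In the same fits this term was past the threshold at 5 of the 3439 probes, or 0.145%, and at 1 with averaging, or 0.0291%. The difference of mTERF9 passed narrowly when values listed at 0 elsewhere on the array were left out (0.76, limma interaction term, adjusted p = 0.0474). The share of all probes that passed in that setting is not given here.

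AT1G79220, an mTERF gene with no further name in the annotation used, had nearly the same deposited intensities in the groups. They ran from 0.152 through a median of 0.324 to 0.438 in wild type. In the mutant they ran from 0.183 through 0.315 to 0.446. The groups overlapped over almost their whole range, with a single mutant column above the highest wild type column. After quantile normalization the mean log2 level was -1.94 ± 0.44 in the wild type columns and -1.45 ± 0.34 in those of the mutant (SD, n = 12 columns), and 7 mutant columns lay above every wild type column. The log2 change was 0.49 ± 0.17 (SE), or 1.40-fold. It was 0.53 with median centring and -0.01 without normalization, where the medians over all probes were 0.31 and -0.24. Its direction thus differed with the scaling, and its call was also lost in settings that kept quantile normalization.

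The change of AT1G79220 was also uneven across the numbers. It was 0.09 in numbers 1 to 6, with 4 of 6 numbers higher, and 0.89 in numbers 7 to 12, with 5 of 6 higher. The difference of 0.80 ± 0.28 did not pass (limma interaction term, adjusted p = 0.147, and 0.656 averaged). With the replicate number as a block, which compares columns of the same number, the SE of its change was 0.19 and it no longer passed. In that fit the SEs of AT5G55580, AT1G61990 and AT1G62010 were 0.14, 0.16 and 0.12. They passed, 3 of the 4 members, where 42.9% of all probes passed. With the block on averaged sets AT5G55580 alone passed, against 22.1% of all probes. These calls too come from the contrast that the choice of members used, and nothing is read from them.

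**Figure D1:**
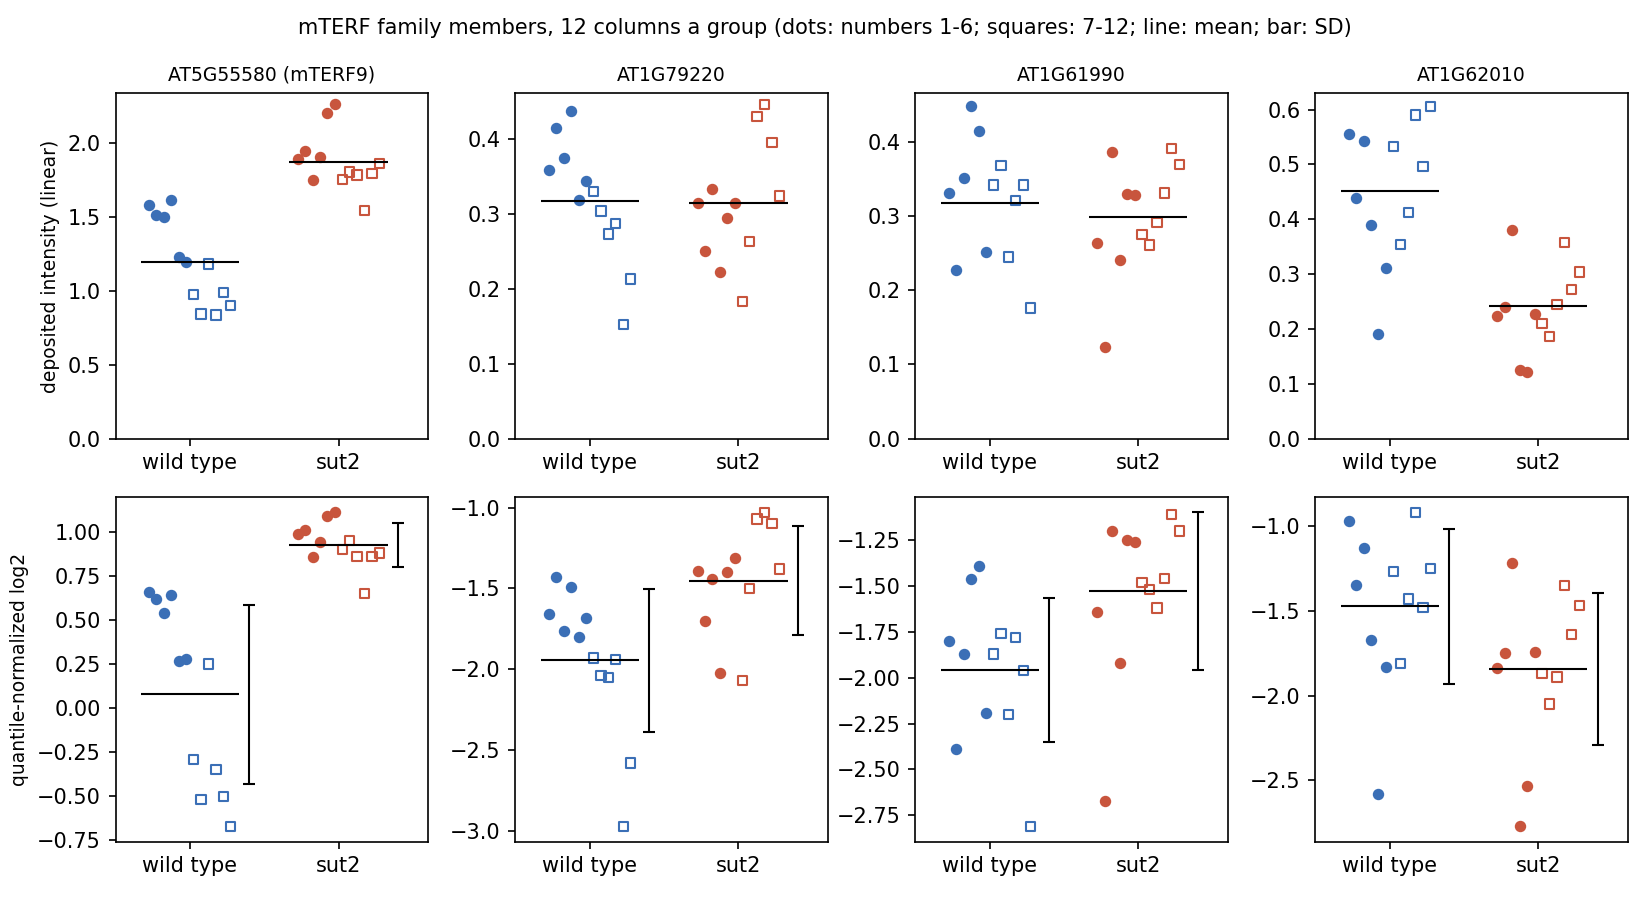
Deposited intensities (upper row, linear) and quantile-normalized log2 values (lower row) of the 4 members in 12 wild type (blue) and 12 sut2 mutant (red) columns, with numbers 1 to 6 as dots, numbers 7 to 12 as open squares, the mean as a line and the SD as a bar. In the upper row mTERF9 lies higher and AT1G62010 lower in the mutant, while AT1G79220 and AT1G61990 overlap almost fully.

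AT1G61990 and AT1G62010 are neighbours on chromosome 1 and belong to a run of mTERF genes. In the order of genes of the TAIR10.1 assembly, a single protein-coding gene, AT1G62000, lies between them, and 9 of the 19 protein-coding genes from AT1G61960 to AT1G62150 are in the mTERF list used here. Such neighbouring copies can be similar in sequence. The probe sequences were not used here, so whether either probe also detects the other gene was not tested.

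AT1G61990 had deposited intensities with a lowest value of 0.176, a median of 0.336 and a highest value of 0.449 in wild type. The mutant values were 0.124, 0.309 and 0.391. The ranges overlapped, with 2 wild type columns above the highest mutant column, whereas after quantile normalization there were 0 such columns and 5 mutant columns lay above every wild type column. After quantile normalization the mean log2 level was -1.96 ± 0.40 in the wild type columns and -1.53 ± 0.43 in those of the mutant (SD, n = 12 columns), a change of 0.43 ± 0.17 (SE) with 10 of 12 numbers higher. Without normalization the change was -0.10. It stood at 0.19 for numbers 1 to 6 and at 0.67 for numbers 7 to 12, a difference of 0.47 ± 0.34 that did not pass (limma interaction term, adjusted p = 0.495).

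AT1G62010 went the other way. Its deposited intensities were 0.190 at the lowest, 0.467 at the median and 0.605 at the highest in wild type. In the mutant they were 0.121, 0.234 and 0.380. The ranges overlapped, with 9 of the 12 wild type columns above every mutant column, and with 3 of them after quantile normalization. After quantile normalization the mean log2 level was -1.47 ± 0.46 in the wild type columns and -1.84 ± 0.45 in those of the mutant (SD, n = 12 columns). The log2 change was -0.37 ± 0.19 (SE), with 10 of 12 numbers lower, and -0.92 without normalization. The divisions gave -0.39 (numbers 1 to 6) and -0.35 (numbers 7 to 12), a difference of 0.04 ± 0.37 (limma interaction term, adjusted p = 0.968).

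The neighbours were also set against each other within each column. Levels of different probes are not comparable, so the difference between the 2 probes has no meaning at any 1 value, but it can be followed from column to column. On the log2 scale the difference (AT1G61990 minus AT1G62010) ran from -1.56 through a median of -0.67 to 1.19 in wild type. In the mutant it ran from -0.92 through 0.33 to 1.28, so the ranges overlapped. Its mean was -0.48 ± 0.71 in the wild type columns and 0.32 ± 0.53 in those of the mutant (SD, n = 12 columns), a shift of 0.80 ± 0.26 (SE), with an SE of 0.28 over the averaged sets. Neither SE pairs the columns by number.

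This shift depended little on the scaling, because a factor common to a column cancels within it. From the deposited intensities alone the log2 ratio shifted by 0.82 ± 0.26 (SE, also without pairing). With 0.1 added to the intensities before log2 the shift was 0.60. Both probes were dim, with group medians from 0.234 to 0.467 where column means ran from 0.959 to 1.05, so their values may be partly background. The quantile-normalized difference was higher in the mutant in 12 of 12 numbers and in 6 of 6 averaged sets, and the log2 ratio of deposited intensities in 11 of 12 numbers. How many other pairs of probes would give such counts was not examined. The quantile-normalized shift amounted to 0.58 in the lower division of the numbers (1 to 6) and to 1.02 in the higher (7 to 12). By number, the difference was smallest at number 5, where AT1G61990 changed by 0.13 and AT1G62010 by 0.05. It was largest at number 12, where they changed by 1.61 and -0.21. The shift is the difference of the 2 changes given above, in the contrast on which both genes were selected, and it is a description, with no test.

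**Figure D2:**
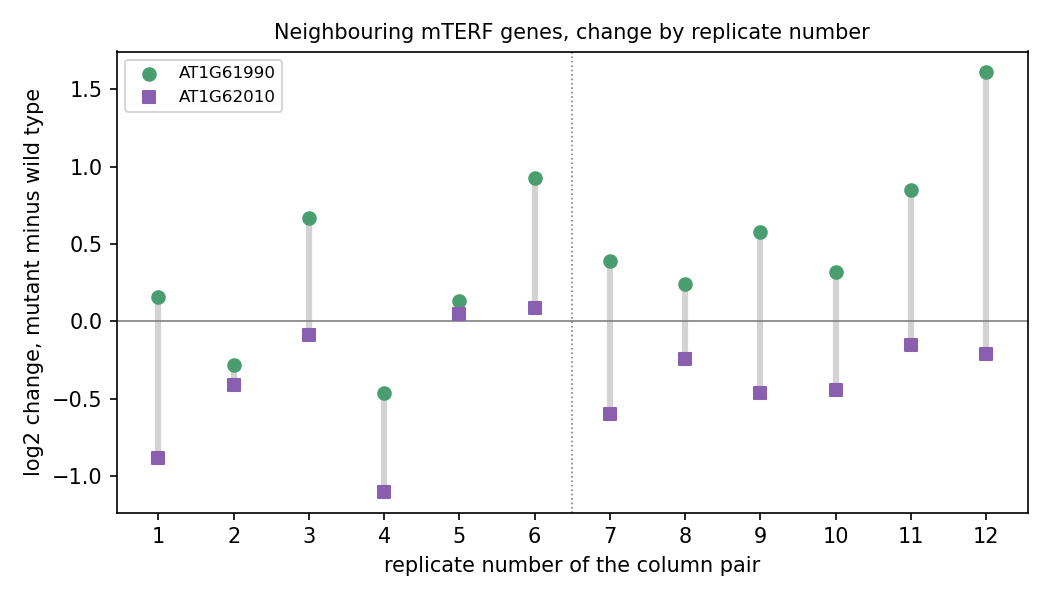
Log2 change (mutant minus wild type, quantile-normalized) of AT1G61990 (green dots) and AT1G62010 (violet squares) at each of the 12 replicate numbers, joined by a grey bar, with a dotted line between numbers 6 and 7. The green dot lies above the violet square at 12 of 12 numbers, by 0.08 at number 5 and by 1.83 at number 12.

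Within the groups the 6 pairs of members varied together to different degrees. Over the 12 averaged sets (6 a group), the deviations of AT1G61990 and AT1G62010 from their group means correlated with r = -0.22 (Spearman -0.29). By Pearson the highest value among the 6 pairs of members was that of AT5G55580 and AT1G79220, with r = 0.67 (Spearman 0.39), and by Spearman that of AT1G79220 and AT1G61990, with 0.43 (r = 0.50). Between all pairs of single-gene probes the lower and upper quartiles of r were -0.28 and 0.28. The sets share the division of the numbers, which both AT5G55580 and AT1G79220 follow in wild type, so these values are descriptions.

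Of 31 other mTERF genes listed, 4 had probes of their own, AT3G18870, AT4G09620, AT1G62150 and AT3G46950. They were not among the proposed members, although the list that holds them was also chosen with earlier results of these data known. AT3G18870 fell in the mutant, and the other 3 did not pass. Of the 4, then, 1 fell and none rose, where 15.9% of all probes fell and 18.8% rose. With consecutive numbers averaged none of the 4 passed (limma, adjusted p from 0.0538 to 0.781), against 13.1% of all probes. With median centring 2 of them, AT4G09620 and AT1G62150, rose. That scaling shifted probes upward in general: 1053 of the 3439 rose and 506 fell, with a median log2 change of 0.31. In the quantile-normalized columns the 4 genes had a median change of 0.20, against 0.10 over all probes.

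AT3G18870 had intensities from 0.429 through a median of 0.682 to 1.0 in wild type. In the mutant they ran from 0.213 through 0.284 to 0.502. In 11 of 12 wild type columns the intensity was above that of every mutant column, and after quantile normalization 7 of 12 were. The mean log2 level was -0.77 ± 0.45 in the wild type columns and -1.53 ± 0.38 in those of the mutant (SD, n = 12 columns), and the gene fell by 0.76 on the log2 scale, with an SE of 0.17 (limma, adjusted p = 0.00185), to 1.69-fold below wild type. It was lower in 11 of 12 numbers, where 13.4% of all probes were lower in at least 11, and in 6 of 6 sets, as were 13.4% of all probes. With consecutive numbers averaged the SE was 0.24 and the call was narrowly lost (limma, adjusted p = 0.0538), and with these averages paired by number it passed (adjusted p = 0.0415). Without normalization the change was -1.25.

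The other 3 had higher or nearly equal values after quantile normalization. AT4G09620 had a median intensity of 1.94 in wild type and 2.93 in the mutant and a log2 change of 0.34 ± 0.17 (SE, limma, adjusted p = 0.118), with 11 of 12 numbers higher. It passed with the replicate number as a block (limma, adjusted p = 0.0258), but not with that block on averaged sets (adjusted p = 0.175), and its change was 0.89 with median centring (adjusted p = 3.28e-04). It also passed with the division as a block (limma, adjusted p = 0.0427) and with array weights (0.51, adjusted p = 0.0121). AT1G62150, which lies in the run on chromosome 1 with AT1G61990 and AT1G62010, had a change of 0.30 ± 0.22 (limma, adjusted p = 0.302). Numbers 1 to 6 gave a change of -0.13 and numbers 7 to 12 a change of 0.74, a difference of 0.87 ± 0.23 that did not pass (limma interaction term, adjusted p = 0.0747, and 0.587 averaged). In numbers 7 to 12 alone AT1G62150 passed (limma, adjusted p = 0.0141). With median centring it changed by 0.52 (limma, adjusted p = 0.0447) and without normalization by -0.02. AT3G46950 had a change of 0.10 ± 0.16 (limma, adjusted p = 0.658), and of -0.44 without normalization (adjusted p = 0.0467).

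**Figure D3:**
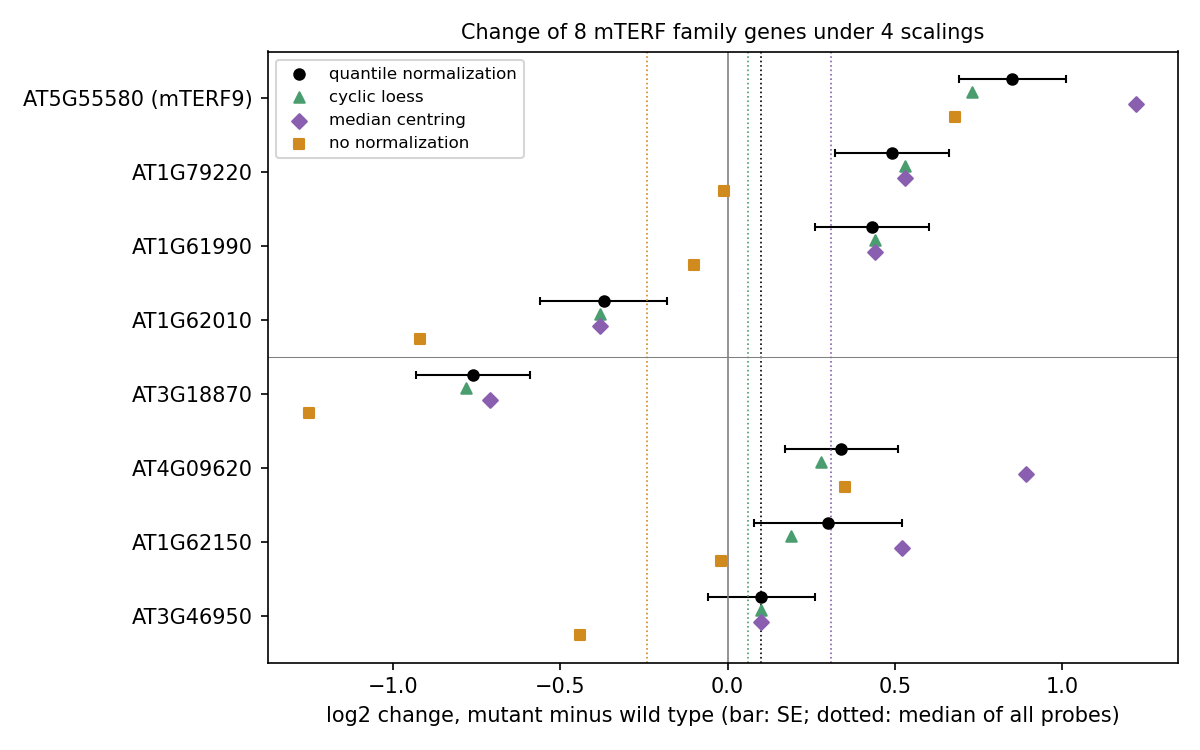
Log2 change (mutant minus wild type) of the 4 members (above the line) and of the 4 further mTERF genes (below it) under quantile normalization (black, with its SE), cyclic loess, median centring and no normalization, with the median of all probes under each as a dotted line. AT5G55580 and AT4G09620 stay above 0 and AT1G62010 and AT3G18870 below 0 under all 4. Without normalization AT1G79220, AT1G61990, AT1G62150 and AT3G46950 are below 0.

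Beyond these 8 probes, 6 carried the names of 2 to 4 genes, all of them mTERF genes. No gene was read from them. None passed in the 24 columns (limma, adjusted p from 0.131 to 0.807), with log2 changes from -0.12 to 0.94. With the replicate number as a block 1 of them passed, a probe with 2 names and a change of 0.30 (limma, adjusted p = 0.0409). Of these 6 probes, 1 carries the name of AT5G55580 beside that of another mTERF gene. Its log2 change was -0.09 ± 0.24 (SE), with median intensities of 0.255 in wild type and 0.234 in the mutant, so the difference seen at the probe of AT5G55580 alone was not seen there. Another carries the name of AT1G61990 with those of 3 other mTERF genes, and its change was 0.94 ± 0.48. Its median intensities were nearly equal, 0.543 in wild type and 0.557 in the mutant. There, 1 wild type value was listed at 0 and was raised to 0.00971 before log2. None of the 8 single-gene probes had a value listed at 0 in any column.

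The lower and upper quartiles of the log2 change over all probes were -0.40 and 0.48, and AT5G55580, AT1G79220 and AT3G18870 lay outside them. The change of AT5G55580 was above that of 90.4% of all probes, and that of AT3G18870 above that of 14.9%. AT1G79220, AT1G61990 and AT1G62010 stood above 76.0%, 71.4% and 26.0%.

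**Figure D4:**
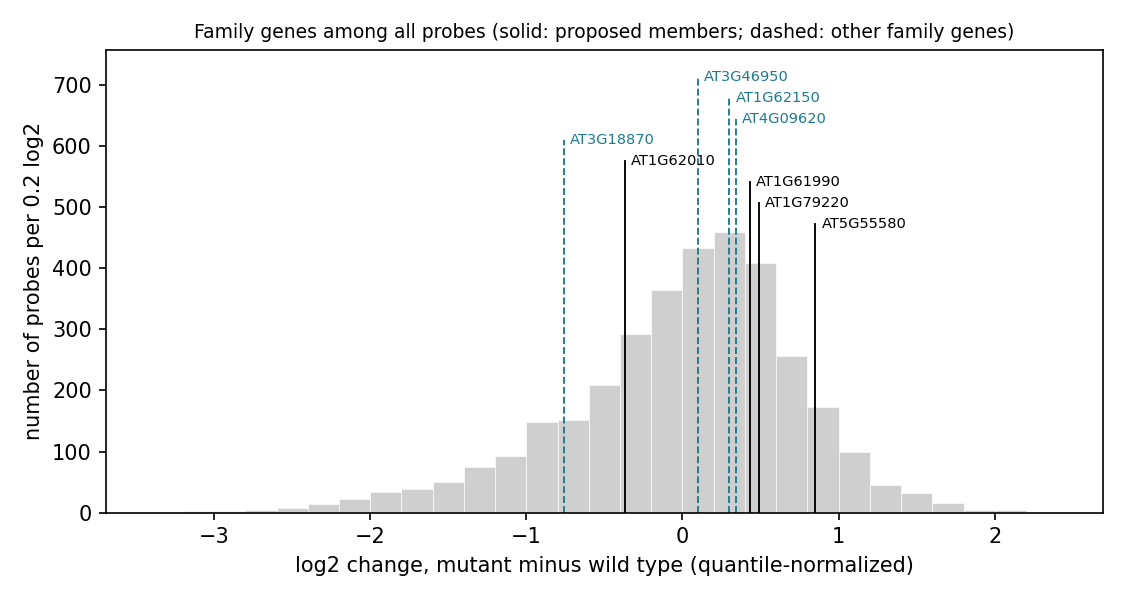
Distribution of the log2 change (mutant minus wild type, quantile-normalized) over all 3439 probes in bins of 0.2, with the 4 members as solid lines and the 4 further mTERF genes as dashed lines. The 8 lines run from -0.76 (AT3G18870) to 0.85 (AT5G55580), and the median of all probes is 0.10.

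The machinery in which mTERF proteins work could not be followed further on these probes. Of 67 listed genes for organelle RNA polymerases and their partner proteins, plastid RNA processing and organelle translation factors, 0 had a probe annotated with that gene alone.

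The single-gene probes whose deviations from the group means over the 12 averaged sets were most like those of each member were found as a description. The division of the numbers stays in these deviations. From numbers 1 to 6 to numbers 7 to 12 the wild type mean of AT5G55580 went from 0.50 to -0.35. That of AT1G62150 went from 0.24 to -1.01. How much of each r comes from the division was not tested. For AT5G55580 the most similar was HEMA3, a glutamyl-tRNA reductase of tetrapyrrole synthesis (r = 0.95). Next were AT1G62150 of the mTERF run on chromosome 1 (r = 0.91) and AT4G24910 (r = 0.91). None of these 3 passed between the genotypes, with log2 changes of 0.14 ± 0.21, 0.30 ± 0.22 and 0.84 ± 0.35 (SE, limma, adjusted p = 0.621, 0.302 and 0.0623). With the replicate block AT4G24910 passed (limma, adjusted p = 0.0249, and 0.0942 with that block on averaged sets). For AT1G79220 the most similar were Z-ISO, an isomerase of carotenoid synthesis (r = 0.82), AT3G44610 (r = 0.81) and AT2G46190 (r = 0.79). Of these AT3G44610 rose, with a log2 change of 1.5 ± 0.48 (limma, adjusted p = 0.0191, and 0.0255 averaged), while Z-ISO, with a change of 1.24 ± 0.50, passed with the replicate block alone (adjusted p = 0.0319, against 0.0556 without it and 0.129 with the block on averaged sets).

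For AT1G61990 the most similar were AT5G52810 (r = 0.88), AT3G07790 (r = 0.80) and AT2G26110 (r = 0.74). AT5G52810 rose by 0.66 ± 0.15 (limma, adjusted p = 0.0016, and 0.0553 averaged, where the call was lost). For AT1G62010 they were AT3G53470 (r = 0.78), AT3G04650 (r = 0.76) and AT2G11270 (r = 0.76). AT3G04650 rose by 0.42 ± 0.14 (limma, adjusted p = 0.021, and 0.170 averaged). AT3G53470 had a change of 1.11 ± 0.59 (limma, adjusted p = 0.148), which passed with the replicate block on averaged sets (adjusted p = 0.0237).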

How the data were processed

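Labels gave 12 wild type and 12 sut2 mutant columns of total RNA. The deposited intensities are linear values between 0 and 100, with 146 to 273 values a column at 0; the sources used here do not say how the authors made them. Values below the 1st percentile of positive values (0.00971) were raised to that floor before log2 and quantile normalization. All 3439 probes were fitted with limma 3.58.1 in R 4.3.3 (lmFit, eBayes, group as the only term, two-sided), with Benjamini-Hochberg adjustment over all probes and a threshold of 0.05, and a further fit gave the interaction of genotype and division. The steps were tested on simulated data.

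Members and lists were chosen with earlier results of these data known. Named genes were the members, listed organelle genes that passed and the 3 most similar single-gene probes of each member; AT4G09620, AT1G62150 and AT3G46950 were named after their values were seen, because only 4 listed genes were measured. Gene names of probes came from an annotation of the platform, possibly outdated, in which 870 probes carry several names and 1877 none; 690 of the 692 single-gene probes matched the TAIR10.1 gene table. Coordinates are left out because the build behind the probes is unknown. No background or detection measure was used, so dim values, such as those of AT1G79220, AT1G61990 and AT1G62010, may be background.

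Deviations of the 12 same-numbered column pairs across the groups correlated by 0.14 to 0.40, so the numbers pair the columns; this comes from the data, not from a label. Consecutive numbers of a group correlated by 0.12 to 0.55. Alternatives covered averaging, blocks, scaling, floors, array weights, divisions and leaving out each column.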

Additional observations from a re-analysis of the deposited data

How the results depend on the processing

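The signs of AT5G55580, AT1G62010, AT3G18870 and AT4G09620 held in all 39 alternatives. So did that of the shift between AT1G61990 and AT1G62010 (0.70 to 0.95 without any 1 column). Without normalization AT1G79220 changed by -0.01 in place of 0.49, AT1G61990 by -0.10, AT1G62010 by -0.92 and AT3G46950 by -0.44 (limma, adjusted p = 0.0467); the cause was not tested. Median centring gave 1.22 for AT5G55580. AT1G79220 changed by 0.09 in numbers 1 to 6 only and by 0.91 in numbers 7 to 12 only. The division difference of AT5G55580 was 0.76 with values at 0 left out. Against 1196 probes past the threshold (648 higher, 548 lower), 449 passed with consecutive numbers averaged, 619 with these as a random block, 759 with the replicate block on averages and 668 in numbers 1 to 6 only, against 1100 in numbers 7 to 12 only; the cause was not tested. The split was 173 higher and 1016 lower without normalization and 1053 and 506 with median centring.

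The 4 further mTERF genes were the only listed organelle genes measured beside the members. Of these 4, 1 passed (AT3G18870, lower), and 0 with averaging. The count was 2 with the replicate block, without normalization, in numbers 7 to 12 only, with a division block or with array weights. It was 3 with median centring. Of all 3439 probes 1196 passed, and 449 with averaging. In the 5 settings with a count of 2, in the order given, 1477, 1189, 1100, 1397 and 1019 passed. With median centring 1559 passed. Without any 1 column the changes ran from 0.79 to 0.90 for AT5G55580, 0.39 to 0.55 for AT1G79220, 0.35 to 0.53 for AT1G61990 and -0.47 to -0.29 for AT1G62010, with 1088 to 1227 probes called. Of the genes named, the replicate block changed no call beyond those given in the report. As a description, AT1G61990 passed in 10 of the 39 alternatives and AT1G62010 in 3. Beside the replicate block, AT1G61990 passed with median centring and in numbers 7 to 12 only. It passed with a 5th percentile floor (1277 called) or 0.1 added before log2 (1273). It also passed with the dimmest probes left out (1131 of 2579 called). So it did without wild type number 4 or 5 or mutant number 2 or 4. AT1G62010 also passed without normalization or without wild type number 5. AT1G79220 passed in 32, and lost its call also with the random block, array weights or numbers 1 to 6 only. Nothing is read from these calls. Of the 12 most similar genes, 7 were the same without normalization.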
